A study of Homo sapiens with 4 samples.

Results

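Integrins are receptors that hold a cell to its matrix. Each is a pair of 1 α and 1 β subunit, both spanning the membrane. The α subunit largely sets which matrix protein is bound, while the β subunit reaches the actin cytoskeleton through adaptors such as talin and kindlin. In human embryonic stem cells (hESCs), adhesion to laminin through α6β1 and to vitronectin through αvβ5 is used to hold cultures on coated plates.

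The genes described here are 10 integrin subunits, the α subunits ITGA1, ITGA2, ITGA3, ITGA5, ITGA6 and ITGAV and the β subunits ITGB1, ITGB3, ITGB5 and ITGB8. They were taken by gene symbol from 26 human α and β subunits and from 62218 genes in all, and 119 of the 242542 transcripts matched to the annotation belong to them. The remaining 16 subunits enter below as a list.

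The libraries are Nanopore cDNA sequencing of wild-type H1 cells, an established hESC line, in 2 pluripotent states with 2 replicates each. Primed hESCs, which resemble the epiblast after implantation, were grown in mTeSR on Matrigel in normal oxygen and passaged with Dispase. Naïve hESCs, which resemble the epiblast before implantation, were derived from the primed H1 cells. They were kept in FINE medium, which holds Dasatinib, AZD5438, SB590885, PD0325901, Y-27632, LIF, Activin A and bFGF, in low oxygen on reduced growth factor Matrigel, and were passaged with TrypLE. By the labels naïve cells stood at 50% confluency and primed cells at 60 to 70%. State, medium, inhibitors, oxygen, coating grade, passaging enzyme and confluency therefore cannot be told apart. All cells come from 1 line, and the sources used here do not say whether the replicates were separate cultures, so p-values measure the spread between these libraries, which may be technical.

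A gene's value is the raw count of its transcript with the largest mean count. The authors counted alignments over whole transcript spans, introns included and strand ignored, and an alignment entered every gene it overlapped. Counts of overlapping genes therefore contain each other's alignments, and for this reason other genes that hold many of a member's counts are given beside it. Levels are in CPM, counts relative to library sizes scaled by the TMM method of edgeR. Fold changes are primed over naïve on the log2 scale with their standard errors. Calls were made at an adjusted p under 0.05 (quasi-likelihood test of edgeR, Benjamini-Hochberg over 27633 genes).

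Libraries held between 129276054 and 161548901 counts over transcripts. A count of 0 allows up to 3 counts, which is 0.0979 to 0.13 CPM and covers counting error only. The labelled states were checked with marker lists. All 8 naïve markers were called lower in primed libraries, with a summed level of 1230 and 1040 CPM in naïve and 76.8 and 78.4 CPM in primed libraries, and all 8 primed markers were called higher, at 146 and 141 against 820 and 724 CPM, with SFRP2 and THY1 at 0 in both naïve libraries. Among the naïve markers KLF17 changed little, with 2200 and 2423 counts in naïve and 2083 and 2236 in primed libraries. Its log2 fold change was -0.41 (adjusted p = 0.0107), and it made up most of the primed sum. Markers of trophoblast also moved with the state. Of 8, 7 were lower in primed libraries, with HSD3B1 at 0 in both primed libraries. The sum of the 8 was 1730 and 2070 CPM in naïve and 4.42 and 3.62 CPM in primed libraries. CGA, with 35747 and 47550 counts in naïve and 0 and 1 in primed libraries, made up most of the naïve sum. The part of the trophoblast markers in the results below was not tested. In bulk samples fewer cells of a type and less RNA per cell cannot be told apart. Endoderm markers summed to at most 6.66 CPM and fibroblast markers to at most 3.79 CPM in any library.

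Among the 10 members, 5 were called higher in primed hESCs (ITGA2, ITGA3, ITGA6, ITGAV and ITGB8), 2 were called lower (ITGA5 and ITGB5) and 3 were not called (ITGA1, ITGB1 and ITGB3). Over all genes tested, 37.4% were called higher and 32.6% lower. The counts of members are given as a description against that background and are not read as a property of the family. ITGB8 passed the count filter through its primed libraries alone, so its call follows in part from the filter and it is described by its counts. Without the TMM factors, the median change over all genes moved from 0.08 to 0.72 on the log2 scale, the split of calls from 10327 higher and 9009 lower to 15542 higher (56.2%) and 4504 lower (16.3%), and the members called from 5 higher and 2 lower to 7 higher and 0 lower. The 5 members called higher kept that call under both scalings and in DESeq2, and both members called lower lost theirs without the TMM factors, so these are changes relative to the bulk of genes.

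**Figure D1:**
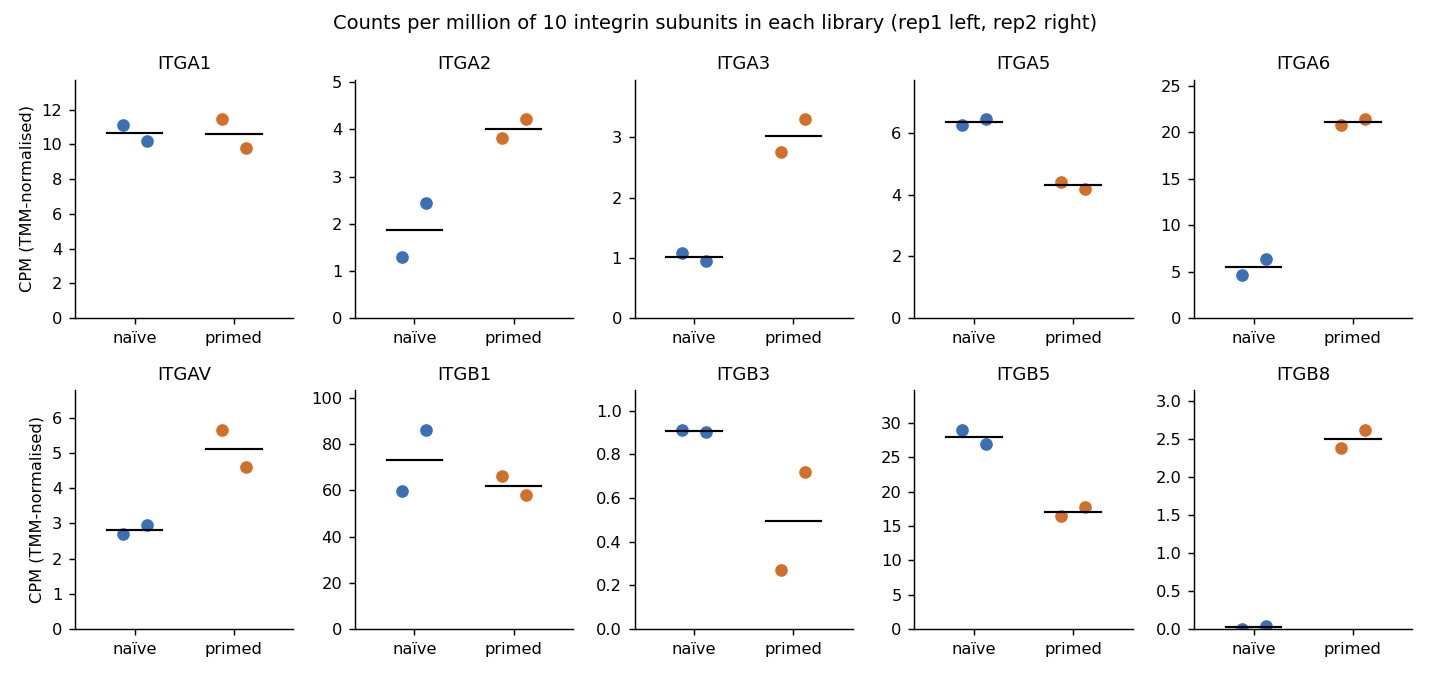
TMM-normalised CPM of each of the 10 integrin subunits (y axis, linear from 0, a separate scale per panel) in the naïve and primed libraries (x axis); each point is a library and each line the mean of 2. ITGA2, ITGA3, ITGA6, ITGAV and ITGB8 sit higher in both primed libraries, ITGA5, ITGB5 and ITGB3 (not called) sit lower, and ITGA1 and ITGB1 overlap.

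Among collagen receptors, ITGA2 was higher in primed hESCs, whereas the value of ITGA1 rested almost wholly on a second gene. Both subunits pair with β1, and their genes are neighbours on chromosome 5. ITGA1 encodes α1, which prefers basement membrane collagen IV, and ITGA2 encodes α2, which prefers fibrillar collagen I.

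The transcript counted for ITGA1 (ENSG00000213949), ITGA1-201, lies at chr5:52787916-52959209 on the plus strand of GRCh38. It had 256 and 260 counts in naïve and 336 and 300 in primed libraries, or 10.7 ± 0.642 and 10.6 ± 1.16 CPM (mean ± SD, n = 2). The states overlapped, and the log2 fold change was -0.01 ± 0.17 (adjusted p = 0.977). PELO, a ribosome rescue factor, starts at the same base on the same strand and ends inside ITGA1, so each alignment on PELO also counts for ITGA1. PELO had 250 and 253 counts in naïve and 309 and 259 in primed libraries, which is 93.0% of the count of ITGA1.

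Subtracting PELO left 6 and 7 counts for ITGA1 in naïve and 27 and 41 in primed libraries. These remainders did not overlap between the states, with 0.268 ± 0.0101 CPM in naïve and 1.13 ± 0.297 CPM in primed libraries. Fitted on its own, the remainder had a log2 fold change of 2.06 ± 0.44 (adjusted p = 8.01e-05), a subtraction chosen after the data were seen. Subtracting every other gene inside the span left 6, 5, 10 and 27 counts and a log2 fold change of 1.42 (adjusted p = 0.0157). The remainder after PELO also holds alignments over introns and those of antisense RNAs. ENSG00000288539, antisense and inside the span, had 0 and 2 counts in naïve and 15 and 14 in primed libraries. ITGA2-AS1, antisense across the end of ITGA1, had 10, 18, 52 and 43, some of which may lie outside the span. PELO-AS1, antisense across the start, had 9, 11, 32 and 41 and meets the span only within PELO. Without strand it cannot be told how much of the remainder belongs to ITGA1.

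**Figure D2:**
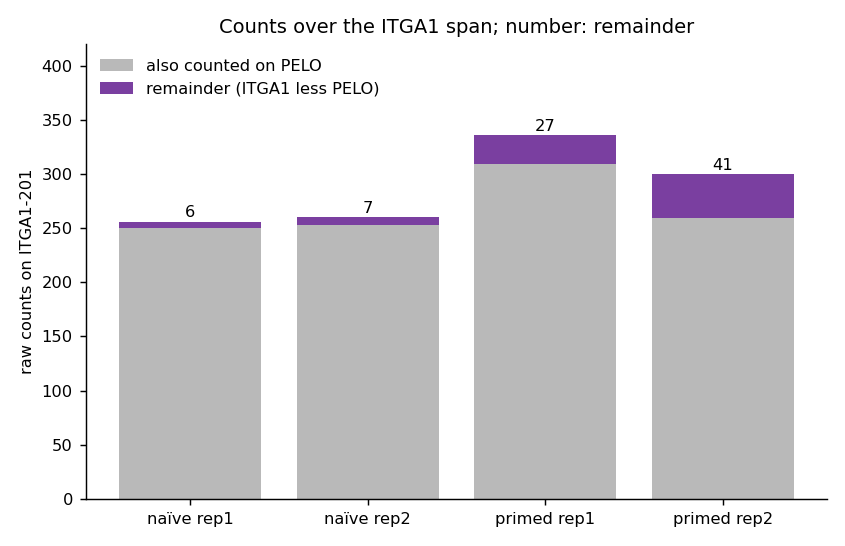
Raw counts on ITGA1-201 (y axis) in the 4 libraries (x axis), divided into the alignments that PELO also holds (grey) and the remainder (purple, with its count above the bar). The remainder, 6 and 7 counts (naïve) and 27 and 41 counts (primed), is a small part of each bar.

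The shared start of ITGA1 and PELO is shown because it is where the 2 genes' counts cannot be separated. The window runs from 250 bases before to 50 bases after the start (RefSeq, GRCh38.p14, chr5:52787666-52787965, plus strand), and RefSeq places the same window at both genes. It holds 19 CpG dinucleotides, 61.7% G and C, and no GC box (GGGCGG or its reverse complement CCGCCC, a motif known to be bound by SP factors), where 45.0% of 35116 such windows hold a GC box and the median window has 14 CpG dinucleotides.
ITGA1 and PELO: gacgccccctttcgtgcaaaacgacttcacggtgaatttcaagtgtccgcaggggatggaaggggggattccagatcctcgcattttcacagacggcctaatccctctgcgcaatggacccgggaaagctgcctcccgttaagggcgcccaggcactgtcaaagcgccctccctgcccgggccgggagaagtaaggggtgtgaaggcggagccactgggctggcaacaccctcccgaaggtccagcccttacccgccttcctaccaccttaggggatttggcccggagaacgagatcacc

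ITGA2 (ENSG00000164171, transcript ITGA2-201, chr5:52989352-53094779, plus strand) had 30 and 62 counts in naïve and 112 and 129 in primed libraries. Both primed libraries lay above both naïve ones, and the naïve libraries stood apart at 1.30 and 2.43 CPM. The mean rose from 1.87 ± 0.800 to 4.01 ± 0.284 CPM, a log2 fold change of 1.09 ± 0.26 (adjusted p = 0.000336), which was 0.72 (adjusted p = 0.0274) without naïve rep1 and 1.62 (adjusted p = 7.94e-06) without naïve rep2. ITGA2-AS1, antisense across the start, had 10, 18, 52 and 43 counts in the same order, and a further antisense RNA inside the span, ENSG00000286048, had 6, 14, 32 and 32. Alignments on these RNAs cannot be told from those of ITGA2 without strand. With the genes inside the span subtracted, the log2 fold change of ITGA2 was 0.98 (adjusted p = 0.00238). That subtraction leaves in ITGA2-AS1, some of whose alignments may lie outside the span, and its part in the rise was not tested.

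ITGA6 and ITGA3, which encode α subunits of laminin receptors, rose in primed hESCs, by 3.81-fold and by 2.99-fold. ITGA6 encodes α6, the subunit of the laminin receptors α6β1 and α6β4. ITGA3 encodes α3, which pairs with β1 and binds laminins with the α5 and α3 chains.

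ITGA6 (ENSG00000091409, transcript ITGA6-212, chr2:172427586-172506459, plus strand) had 108 and 162 counts in naïve and 612 and 655 in primed libraries. It had the highest level per exonic length of the 6 α members in the primed libraries, and the states were well separated. The level was 5.52 ± 1.18 CPM in naïve and 21.1 ± 0.400 CPM in primed libraries, a log2 fold change of 1.93 ± 0.18 (adjusted p = 5.29e-13). PDK1-AS1, antisense across the 3′ part, had 85, 157, 603 and 629 counts, and ITGA6-AS1 and ENSG00000226963, both antisense and inside the span, had 29, 38, 170 and 129 and 34, 45, 186 and 145 counts. All 3 were higher in both primed libraries, and without strand it cannot be told which gene the shared alignments came from.

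Stretches of ITGA6 gave the same direction. ITGA6-211, a short transcript whose span overlaps no other annotated gene, had 30 and 41 counts in naïve and 185 and 143 in primed libraries, a log2 fold change of 1.90 (adjusted p = 1.31e-08). ITGA6-204, over the 5′ part, had 85 and 80 against 321 and 339 counts, and ITGA6-205, over the 3′ part, had 30 and 87 against 364 and 349. The naïve libraries lay further apart over the 3′ part than over the 5′ part. ITGA6-204 covers ENSG00000226963, ITGA6-AS1 and the span of ITGA6-211, and ITGA6-205 lies inside PDK1-AS1. Only ITGA6-211 is therefore clear of the antisense RNAs.

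RefSeq windows were found for 8 of the 10 members. Those at the counted starts of ITGA6 and of ITGB8, described further below, are printed together because these are the members with the largest changes, and GC boxes are in capitals. The ITGA6 window (chr2:172427336-172427635, plus strand) holds 38 CpG dinucleotides, 72.0% G and C and 3 GC boxes, and the ITGB8 window (chr7:20330650-20330949, plus strand) holds 28 CpG dinucleotides, 71.7% G and C and 2 GC boxes, against a median of 58.7% G and C over all windows. Neither holds TATAAA on either strand, which 11.5% of windows hold. These matches describe the letters and do not show a binding site.
ITGA6: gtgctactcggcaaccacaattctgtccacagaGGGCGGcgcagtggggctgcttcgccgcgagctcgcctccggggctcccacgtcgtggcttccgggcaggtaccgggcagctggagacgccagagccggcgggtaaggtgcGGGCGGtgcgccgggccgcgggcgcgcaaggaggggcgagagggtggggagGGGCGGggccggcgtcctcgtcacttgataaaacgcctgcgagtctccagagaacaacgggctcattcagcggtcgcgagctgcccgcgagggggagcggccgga
ITGB8: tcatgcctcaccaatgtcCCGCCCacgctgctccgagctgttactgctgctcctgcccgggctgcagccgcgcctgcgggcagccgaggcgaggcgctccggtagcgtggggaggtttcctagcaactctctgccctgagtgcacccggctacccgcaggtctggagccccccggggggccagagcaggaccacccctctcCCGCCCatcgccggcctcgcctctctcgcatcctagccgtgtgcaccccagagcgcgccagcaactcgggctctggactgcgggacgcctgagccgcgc

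ITGA3 (ENSG00000005884, chr17:50056068-50090480, plus strand) overlaps no other annotated gene. Its counted transcript, ITGA3-204, is annotated as a retained intron, and the protein-coding ITGA3-202 had the same counts. There were 25 and 24 counts in naïve and 81 and 101 in primed libraries. The naïve libraries lay close together and well below the primed ones, with 1.01 ± 0.101 against 3.02 ± 0.383 CPM. ITGA3 had a log2 fold change of 1.58 ± 0.29 (adjusted p = 7.39e-06), and no neighbour adds to this value.

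The α subunits that read the RGD motif of fibronectin and vitronectin went in opposite directions. ITGA5 encodes α5 of the fibronectin receptor α5β1 and was lower in primed hESCs, while ITGAV encodes αv, the partner of β1, β3, β5, β6 and β8, and was higher.

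ITGA5 (ENSG00000161638, ITGA5-201, chr12:54395261-54419266, minus strand) had 144 and 164 counts in naïve and 130 and 128 in primed libraries. The raw counts are close, and the states separated after scaling, at 6.34 ± 0.131 and 4.30 ± 0.172 CPM. Its log2 fold change was -0.56 ± 0.20 (adjusted p = 0.0127), and without TMM factors it was 0.08 (adjusted p = 0.74). The call was lost without naïve rep2 (-0.54, adjusted p = 0.0501) and without primed rep2 (-0.52, adjusted p = 0.0631). The antisense GPR84-AS1 runs across the whole gene and had 223, 251, 221 and 229 counts.

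ITGAV (ENSG00000138448, ITGAV-201, chr2:186590056-186680901, plus strand) had 62 and 75 counts in naïve and 166 and 141 in primed libraries. The groups did not overlap, with 2.82 ± 0.178 CPM in naïve and 5.12 ± 0.738 CPM in primed libraries. This is a log2 fold change of 0.86 ± 0.23 (adjusted p = 0.000885). An antisense RNA across the 3′ part, ENSG00000227227, had 33, 37, 156 and 127 counts, some of which may lie outside the span. Beside the counts of ITGAV, these are a larger part in the primed than in the naïve libraries. No ITGAV transcript is clear of this RNA, and it was not subtracted. Without strand it cannot be told how much of the rise belongs to ITGAV.

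ITGB1, the β subunit shared by most of these α subunits, was the most abundant member and its levels overlapped between the states. ITGB1 (ENSG00000150093, chr10:32887332-32958325, minus strand) had 1380 and 2193 counts in naïve and 1945 and 1772 in primed libraries. Its highest library and its second lowest were both naïve, at 86.1 and 59.9 CPM, and the primed libraries lay at 66.1 and 57.8 CPM. ITGB1 was not called, at a log2 fold change of -0.24 ± 0.15 (adjusted p = 0.17). That value was 0.05 (adjusted p = 0.836) without naïve rep2, -0.48 (adjusted p = 0.0146) without naïve rep1, and 0.40 (adjusted p = 0.0348) without the TMM factors. The counted transcript, ITGB1-235, is annotated as a target of nonsense-mediated decay, and a count over the whole span does not tell it from the coding transcripts.

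ITGB5, the β subunit of the vitronectin receptor αvβ5, fell in primed hESCs. ITGB5 (ENSG00000082781, ITGB5-201, chr3:124761948-124887365, minus strand) had 667 and 686 counts in naïve and 484 and 543 in primed libraries. The naïve replicates were alike and both above the primed ones, at 27.9 ± 1.44 against 17.1 ± 0.893 CPM, or 1.63-fold higher in naïve hESCs. The log2 fold change was -0.71 ± 0.15 (adjusted p = 8.11e-05), and ITGB5-202, which overlaps no other gene, gave -0.92 (adjusted p = 1.84e-05) from 289, 278, 164 and 207 counts. Without TMM factors the fold change of ITGB5 was -0.07 (adjusted p = 0.692).

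ITGB3, the β subunit of the platelet receptor αIIbβ3 and of αvβ3, had few counts and was not called. ITGB3 (ENSG00000259207, ITGB3-201, chr17:47253827-47313743, plus strand) had 21 and 23 counts in naïve and 8 and 22 in primed libraries. Both primed libraries lay below the naïve ones in CPM, unevenly. Primed rep1 stood at 0.272 and primed rep2 at 0.718, against 0.911 and 0.902 in the naïve libraries. The log2 fold change was -0.86 ± 0.42 (adjusted p = 0.0644), and -1.72 (adjusted p = 0.00919) without primed rep2. A readthrough gene, ENSG00000259753, crosses the locus with 50, 48, 53 and 72 counts. The antisense EFCAB13-DT, across the 3′ end, had 21, 18, 9 and 15 counts, some of which may lie outside the span. Without strand it cannot be told how many of the shared alignments belong to ITGB3.

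ITGB8 was detected by 1 count in the naïve libraries together and by 150 in the primed libraries. It encodes β8, which pairs with αv alone and is known for binding latent TGF-β. ITGB8 (ENSG00000105855, ITGB8-201, chr7:20330900-20415754, plus strand) had 0 and 1 counts in naïve and 70 and 80 in primed libraries. The naïve libraries lay at or below 0.0392 CPM, under the limit that a count of 0 allows, and the primed libraries at 2.38 and 2.61 CPM. The ratio of these pooled counts, corrected for library size, was 121 (95% exact interval 21.4 to 4820, counting error only), and the fitted log2 fold change of 6.63 ± 0.62 depends on the prior count and was 9.11 without naïve rep2, which holds the lone naïve count. Its antisense neighbour at the start, ITGB8-AS1, had 0, 1, 41 and 46 counts. ITGB8-202, whose span overlaps no other gene, had 0 and 0 counts in naïve and 15 and 17 in primed libraries.

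**Figure D3:**
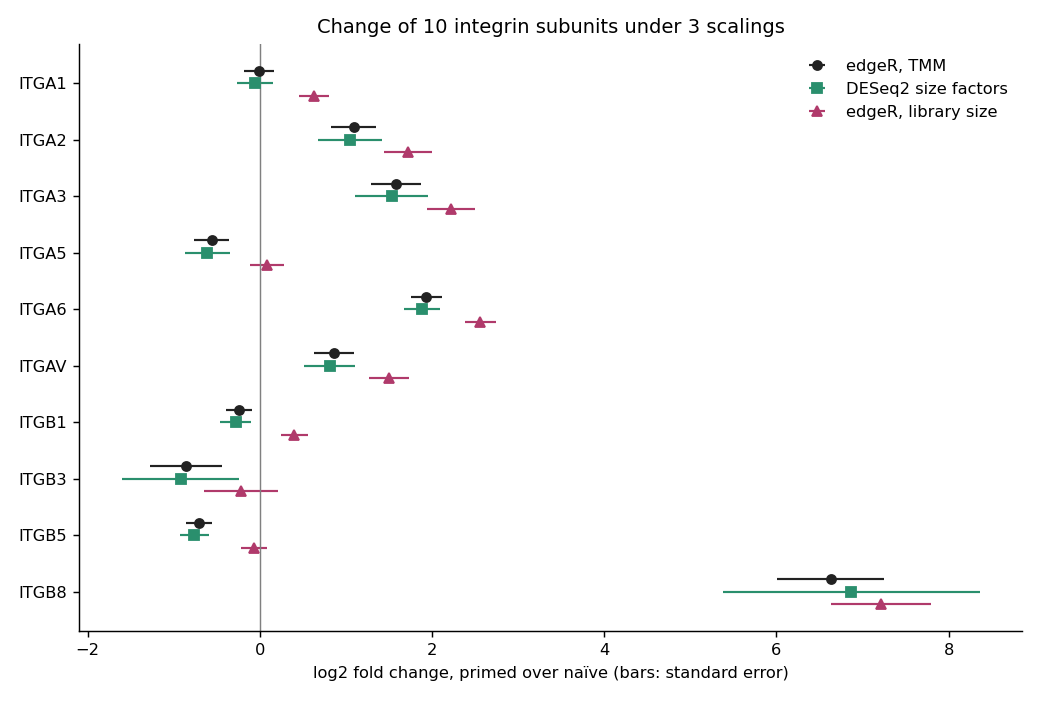
Log2 fold change, primed over naïve (x axis, bars are standard errors), of the 10 subunits (y axis) from edgeR with TMM (circles), from DESeq2 (squares) and from edgeR with library sizes alone (triangles). The library-size values sit to the right of the others for each subunit, and ITGA5, ITGB1 and ITGA1 change sign with it, from -0.56 to 0.08, from -0.24 to 0.40 and from -0.01 to 0.63.

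Levels between subunits were set side by side as CPM per kb of exonic length. In naïve hESCs ITGB1 stood first, at 13.9 and 20.0 CPM per kb in its 2 libraries, followed by ITGB5 at 6.52 and 6.06 and ITGA5 at 1.47 and 1.51. The next pair, ITGA1 (1.03 and 0.950, mostly PELO) and ITGA6 (0.806 and 1.09), overlapped, and so did ITGA2 (0.166 and 0.310) and ITGA3 (0.198 and 0.172) below ITGAV (0.382 and 0.418). In primed hESCs ITGB1 (15.4 and 13.4) was followed by ITGB5 (3.71 and 3.99) and, just under it, ITGA6 (3.58 and 3.67). ITGA1 and ITGA5 overlapped there, as did ITGA3 (0.503 and 0.602) and ITGA2 (0.486 and 0.537), and ITGB8 (0.265 and 0.291 CPM per kb) stood above ITGB3 (0.0458 and 0.121). Since whole spans were counted, a long intron adds counts but no exonic length, so this order is approximate.

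A share within the α or β class does not depend on how libraries are scaled. The α subunits held between 1758 and 3126 counts per library and the β subunits between 2368 and 3232. With PELO subtracted from ITGA1, the share of ITGA6 among α counts was 7.16 and 9.91% in naïve and 24.0 and 22.8% in primed libraries. The largest α shares in the naïve libraries belonged to ITGA7 and ITGAE, which are not members. The share of ITGA5 was 9.55 and 10% against 5.09 and 4.46%. Among β counts, ITGB1 held 58.3 and 67.9% in naïve and 76.2 and 71.0% in primed libraries, and ITGB5 held 28.2 and 21.2% against 19.0 and 21.8%, which overlap. ITGB8 held 0 and 0.0309% in naïve and 2.74 and 3.21% in primed libraries.

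Among the β subunits outside the 10 members, ITGB4 and ITGB6 held smaller shares in primed hESCs. ITGB4, the partner of α6 in hemidesmosomes, had 8.02 and 6.37% of β counts in naïve and 1.10 and 1.64% in primed libraries, and ITGB6, an epithelial partner of αv, had 4.05 and 3.40% against 0.470 and 0.801%. As counts, ITGB6 had 96 and 110 against 12 and 20 and ITGB4 190 and 206 against 28 and 41. With 2 libraries against 2, an exact two-sided permutation test cannot go below p = 0.333, so the shares are a description. Of the 10 members, 6 had a higher and 2 a lower share in both primed libraries than in either naïve library. The lower ones were ITGA5 and ITGA1, the latter not so once PELO was subtracted. Outside the members, the shares of ITGA2B, ITGA4, ITGA9 and ITGA11 were higher in the same way. Those of ITGA7, ITGAE, ITGAL, ITGAM, ITGAX, ITGB4 and ITGB6 were lower, so such a separation was not particular to the members.

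**Figure D4:**
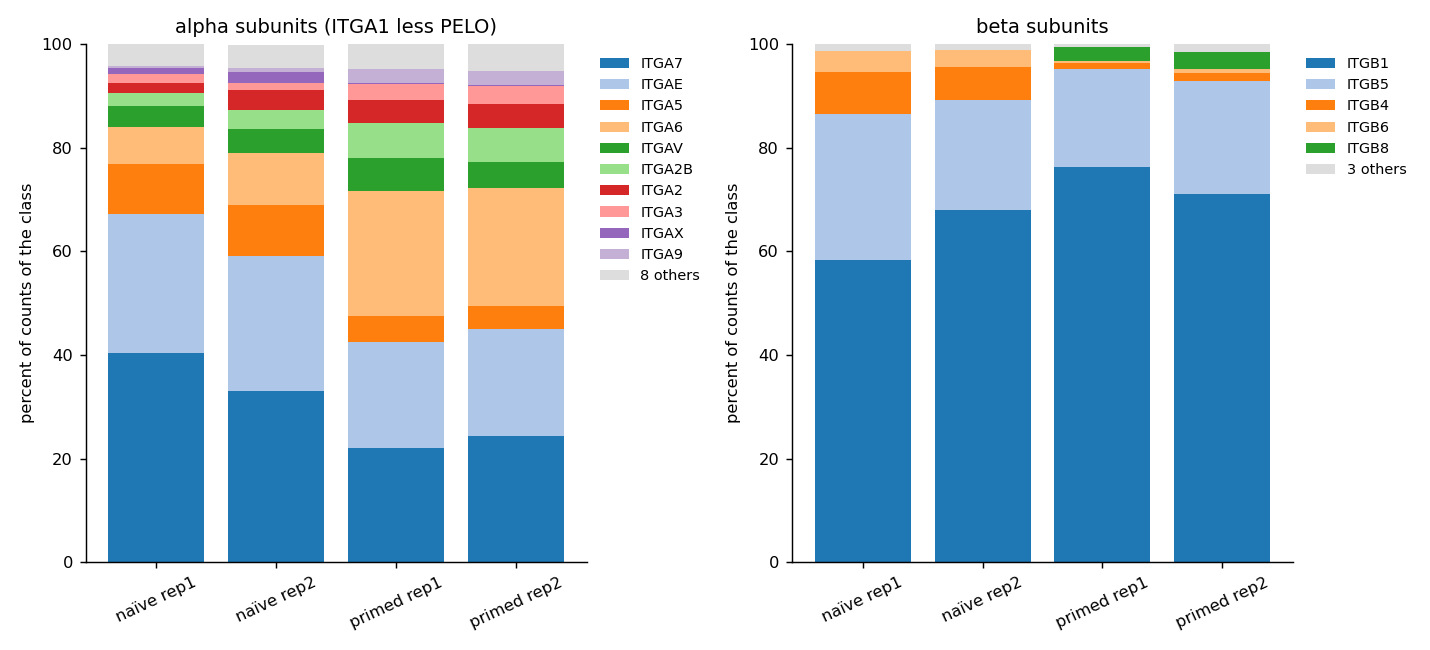
Percent of α subunit counts (left, with PELO subtracted from ITGA1) and of β subunit counts (right) held by each subunit in the 4 libraries (x axis), stacked to 100%; subunits under 2% in every library are joined. ITGA6 widens from 7.16 and 9.91% in naïve to 24.0 and 22.8% in primed libraries, and ITGB4 and ITGB6 narrow while ITGB8 appears.

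Isoform usage of the members was tested over 117 transcripts, and 0 were called at an adjusted p under 0.05 with a change of isoform fraction beyond 0.1, where 0.556% of 159577 transcripts were called over all genes (edgeR diffSpliceDGE, each transcript against the others of its gene). At an unadjusted p under 0.05 there were 5, and at an adjusted p under 0.05 there were 4, all of ITGA1 and all with a change under 0.1. ITGA1-206, with 0 and 2 counts in naïve and 16 and 13 in primed libraries, changed by 0.059 of the fraction (adjusted p = 0.00333). The largest change of fraction was in ITGA1-202, from 76.2 and 73.1% to 59.1 and 58.9% (adjusted p = 1.0). ITGA1-205, ITGA1-206 and ITGA1-207 overlap the antisense ENSG00000288539, which had 0, 2, 15 and 14 counts, and ITGA1-204 overlaps ITGA2-AS1. ITGA1-202 covers nearly all of PELO, and its 250, 256, 316 and 273 counts are close to the 250, 253, 309 and 259 of PELO. These fractions therefore cannot be read as isoforms of ITGA1 alone.

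The other members moved less in isoform fraction. The largest changes were -0.048 for ITGA6-204, 0.044 for ITGB3-201, 0.026 for ITGAV-203, 0.019 for ITGA3-203, -0.017 for ITGA5-204, 0.017 for ITGB5-203, 0.009 for ITGA2-201 and 0.009 for ITGB1-216, each with an adjusted p of 1.0. ITGB8 has no fraction in naïve rep1, where it has no count. Since a span count gives nested transcripts the same alignments, a switch between them, such as one at a cassette exon, would not be seen in these values.

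The 16 other integrin subunits were measured in turn, and 12 had enough counts to be tested. Of these, 4 were called higher and 4 lower, against 37.4% and 32.6% of all genes, with a median log2 fold change of -0.06 against 0.08. Of the higher ones ITGA4 and ITGA11 passed the count filter through the primed libraries alone, and of the lower ones ITGAX through the naïve libraries alone. ITGA2B, the platelet partner of ITGB3, rose by 1.57 ± 0.24 (37 and 62 against 170 and 192 counts), and ITGB6 and ITGB4 fell by 2.98 ± 0.31 and by 2.83 ± 0.24 on the log2 scale. ITGA4, ITGA9 and ITGA11 (higher) and ITGAX and ITGAM (lower), named after their values were seen, had few counts. ITGA4, which pairs with β1 and binds VCAM1 and fibronectin, had 0 and 0 counts in naïve and 18 and 17 in primed libraries.

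Among 22 matrix ligands of integrins, 21 were tested, 7 were higher and 8 lower, beside 37.4% and 32.6% of all genes, with a median of -0.36. TNC, THBS1 and FBN1, 3 of those called higher and named after their values were seen, passed the count filter through the primed libraries alone. The higher ones included the fibrillar collagen chains COL1A2 (log2 fold change 5.34 ± 0.25, 9 and 17 against 706 and 605 counts) and COL1A1 (4.69 ± 0.21, 36 and 30 against 948 and 1174) and the laminin chain LAMB2 (1.28 ± 0.25). The lower ones included fibronectin, FN1 (-1.40 ± 0.15, 1507 and 1964 against 785 and 833 counts), and the laminin chains LAMB1 (-1.77 ± 0.16) and LAMA4 (-2.16 ± 0.27).

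Inside the cell, 22 of 23 integrin activators and actin linkers were tested, 3 were higher and 9 lower, against 37.4% and 32.6% of all genes, with a median of -0.22. The kindlin FERMT1 (0.99 ± 0.26) and vinculin, VCL (0.75 ± 0.15), rose, and TNS4, named after its values were seen, was the third and passed the count filter through the primed libraries alone. Parvin α, PARVA (-2.35 ± 0.18), tensin 3, TNS3 (-1.90 ± 0.16), and α-actinin 4, ACTN4 (-1.68 ± 0.15), which link integrins to actin, fell. Without the TMM factors this list had 11 higher and 4 lower, where 56.2% and 16.3% of all genes were called.

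Of 17 adhesion signalling genes 16 were tested, with 4 higher, 5 lower and a median of -0.01, again beside 37.4% and 32.6% of all genes. The focal adhesion scaffold BCAR1 (1.33 ± 0.26), the kinase FYN (0.99 ± 0.19) and the adaptor CRK (0.45 ± 0.16) rose. NEDD9, a scaffold of the same family as BCAR1, fell by 3.08 ± 0.19 (480 and 535 against 71 and 77 counts), the small GTPase RAP1A by 0.98 ± 0.16 and the kinase SRC by 0.67 ± 0.23 on the log2 scale. PTK2B (higher) and CRKL and RAPGEF1 (lower) complete the calls and were named after their values were seen. Under library size alone the counts were 10 higher and 1 lower, beside the same 56.2% and 16.3% of all genes.

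The listed membrane proteins that associate with integrins were lower in primed hESCs, 8 of 8 where 32.6% of all genes were. Their median was -1.35 against 0.08, and 6 of 8 were lower without the TMM factors, where 16.3% of all genes were. This list was chosen with earlier results of these data known, so the count is a description and not a test of the class. CD47, a partner of αvβ3, had 862 and 1338 counts in naïve and 145 and 133 in primed libraries (-3.28 ± 0.18). The heparan sulphate proteoglycan SDC4 (-2.71 ± 0.16) and the CD98 heavy chain SLC3A2 (-2.17 ± 0.15), which binds β subunits, fell as well. Trophoblast marker levels moved in the same direction as this list, and their part in it was not tested.

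**Figure D5:**
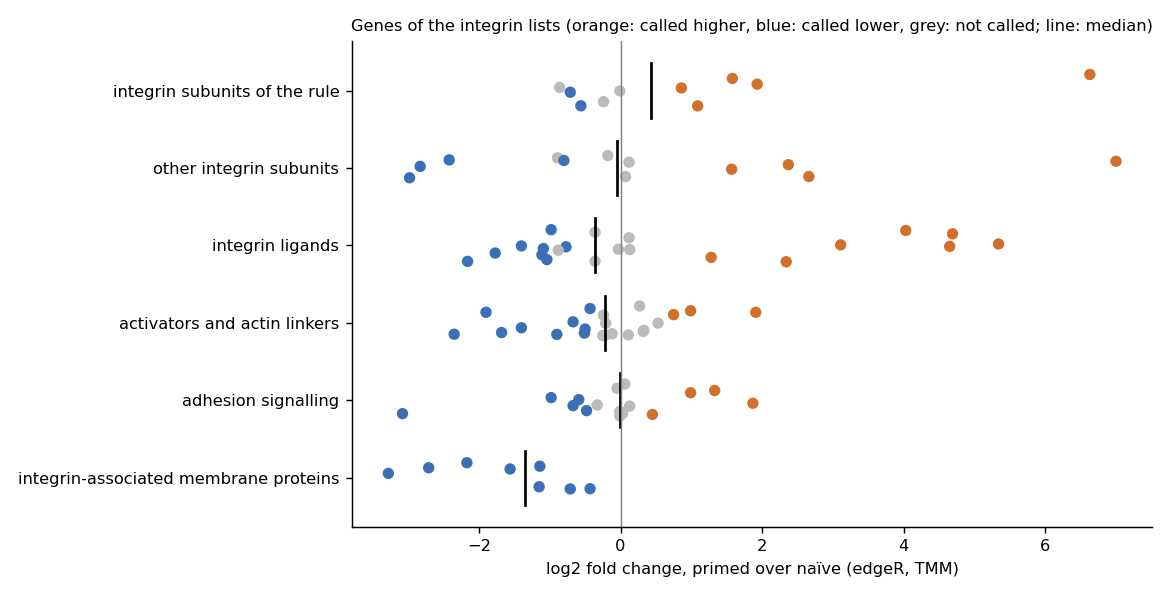
Log2 fold change, primed over naïve (x axis, edgeR with TMM), of the 10 subunits and of each tested gene of the 5 lists (y axis); orange points were called higher, blue lower, grey not called, and black lines are medians. The list medians lie at 0.43, -0.06, -0.36, -0.22, -0.01 and -1.35 from top to bottom, and the integrin-associated membrane proteins are all blue.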

How the data were processed

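The authors aligned Nanopore cDNA reads of 4 libraries with minimap2 and deposited raw counts per transcript, made with featureCounts 2.0.0 on Ensembl release 105 (GRCh38), per the file headers and the submitters' processing notes. Whole spans were counted with the options -L, -O and -M, so 1 alignment enters every transcript it touches, and a read aligned at several places enters at each. Symbols, positions and exonic lengths were taken from GENCODE release 44, which matched 242542 of 244825 transcripts, 97.9% of them with the same coordinates. The 2283 others held 1.0% of counts and were left out.

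The gene test took genes that reached 10 counts in 2 or more libraries, with edgeR 4.0.16 (R 4.3.3, TMM, quasi-likelihood test, two-sided, state as the only term), and isoform usage with diffSpliceDGE. IsoformSwitchAnalyzeR, used in the study, was not run. The fits were checked on simulated counts. Few genes changed in that check, so it did not probe the scaling on which the calls of ITGA5 and ITGB5 depend. TMM factors were 0.7789 and 0.8238 (naïve) and 1.252 and 1.245 (primed).

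The named genes are the 10 members, the main genes overlapping them, the marker lists, and genes from each list. From each list these are up to 3 called genes per direction with the largest change, a mean of at least 50 counts and states that do not overlap. The members and lists were chosen with earlier results of these data known. Alternatives were DESeq2 1.42.0, library size without TMM factors, other count filters, summed or overlap-free transcripts, inside genes subtracted, a replicate block, and each library left out. The subtraction of PELO alone was added after seeing the data. The figures were drawn with matplotlib 3.10.9 and tables handled with pandas 2.3.3.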

Additional observations from a re-analysis of the deposited data

How the results depend on the processing

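Over 115 refits of single members, 100 kept their direction and their side of the threshold, 3 lost a call with the same direction, 2 gained one and 10 changed direction, and ITGA2, ITGA3, ITGA6, ITGAV and ITGB8 kept direction and call in each. ITGB8 passed the count filter through its primed libraries alone, so its call follows in part from the filter wherever a filter was used. Subtracting inside genes left the counts of ITGA3, ITGA5 and ITGAV unchanged, and the overlap-free transcript of ITGA3 is its counted one. Those refits could therefore not change the calls of these members. Antisense genes that run across a span, such as PDK1-AS1 at ITGA6, ENSG00000227227 at ITGAV and ITGA2-AS1 at ITGA2, were never subtracted. The log2 fold change of ITGA1, -0.01, became 0.09 at 50 counts, 0.05 with summed transcripts, 0.63 with library size, 1.42 with inside genes subtracted and 2.06 with PELO subtracted, and ran from -0.12 to 0.10 with a library left out, the last without primed rep2 and 0.05 without naïve rep1. With library size, ITGA5 became 0.08, ITGB1 0.40 and ITGB5 -0.07, the members called lower went from 2 to 0, the ligands lower to 4, the linkers to 11 higher and 4 lower, and the signalling genes to 10 higher and 1 lower. Leaving out naïve rep2 turned ITGB1 to 0.05 (range -0.48 to 0.05). The members called lower ran from 1 to 3 with a library left out and came to 0 with a log2 fold change threshold of 1, a threshold that also left 4 members called higher, without ITGAV at 0.86, and where linkers had 1 higher and 4 lower and signalling genes 2 higher and 1 lower. Linkers called higher ran from 2 to 5, the last without naïve rep2. At 50 counts the other subunits had 2 higher and 2 lower and the ligands 4 higher, since fewer genes were tested. At that filter 37.9% of all genes were called higher and 34.9% lower. The share of all genes beyond a log2 fold change of 1 was not taken, so the counts at that threshold have no background.

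Member transcripts called for usage went from 0 to 4 without a threshold on the fraction. The primed minus naïve share of ITGA1 was 0.392 percentage points with inside genes and 0.831 with PELO subtracted, against -3.50, which leaves 1 member with a lower share. With inside genes subtracted, the share difference of ITGA6 fell from 13.8 to 9.31. Those of ITGA3 and ITGA5 went from 1.68 to 2.22 and from -4.12 to -4.8. Members with a lower share ran from 2 to 4 with a library left out, and the share difference of ITGB3, -0.202, ran from -0.486 to 0.0822, the last without primed rep1. With summed transcripts the share differences went from 2.96 to 0.382 for ITGB8, from 1.40 to 0.465 for ITGAV, from -4.12 to -11.2 for ITGA5, from 13.8 to 19.8 for ITGA6, from 10.5 to 4.62 for ITGB1, from -4.34 to -1.41 for ITGB5 and from 1.52 to 0.64 for ITGA2, in the same direction, and with a library left out ITGB1 ran from 5.74 to 15.3, ITGB5 from -7.81 to -0.869 and ITGA2 from 0.734 to 2.31, the ends being without naïve rep1 and naïve rep2. Apart from construction, the cause of these changes was not tested. With the replicate number as a replicate block, 5 members were higher and 2 lower, as without it, and the numbers were not shown to pair the libraries (Pearson 0.0978 over 17615 genes, 2 pairs). With a library left out, edgeR assumed that the lone library varies like the other state. The overlap-free transcript could not be run for ITGA1, ITGA2, ITGA5, ITGAV and ITGB3, which have none, and DESeq2 was not run for usage. Depth is thinnest for ITGB3 and naïve ITGB8, at 23 counts or fewer, and for the ITGA1 remainder.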
